A study of Homo sapiens with 16 samples.

Results

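The genes described here are the Wnt ligands, their Frizzled and LRP receptors, the R-spondins and the secreted Wnt inhibitors in SW480 cells with altered AJUBA. The gene families were chosen with earlier results of these data known. Within them, protein-coding genes were taken by symbol alone, as the WNT, FZD, SFRP, DKK and RSPO families with LRP5 and LRP6. This gave 43 of the 66023 genes in the count table, with 19 Wnt ligands, 10 Frizzled receptors, 2 LRP co-receptors, 4 R-spondins and 8 secreted inhibitors. RNA-seq of 16 samples from 6 lines addressed how the level of Ajuba, a LIM domain scaffold protein encoded by AJUBA, alters the transcriptome of a colon cancer cell.

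All lines came from SW480, an established human colon adenocarcinoma line that carries a truncated APC. Parental (n = 2) was the unmodified line. The shScrambled line (n = 2) received a lentiviral non-mammalian control shRNA in a plasmid carrying puromycin resistance. shAjuba1 (n = 3) received a lentiviral shRNA against the coding region of AJUBA, and shAjuba2 (n = 3) one against its non-coding region. Ajuba OE (n = 3) received a lentiviral construct driven by CMV, with FLAG and HA tags and puromycin resistance behind an IRES. Its control, named Control (n = 3), received the same construct after the Ajuba sequence had been excised from it. The transduced lines were stable and selected with puromycin, Parental was not, and all lines grew in DMEM with serum. Although the submitters speak of triplicates, Parental and shScrambled are held here with 2 samples apiece. The replicates were described as technical, so p-values measure the spread between samples of a line and not between independently made lines.

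Wnt ligands are secreted lipid-modified proteins that bind Frizzled receptors together with a co-receptor. With LRP5 or LRP6 the ligand stabilises β-catenin, which then drives transcription with TCF/LEF factors, whereas other ligands and co-receptors act on the cytoskeleton and on cell polarity without β-catenin. R-spondins strengthen the signal by keeping Frizzled receptors at the cell surface, DKK proteins block LRP5 and LRP6, and SFRP proteins bind the ligand itself. In the normal colon the pathway maintains the stem cells of the crypt, and in most colon cancers loss of APC activates β-catenin inside the cell.

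Total counts per sample ranged from 30132396 to 69684675, and RPM is the count of a gene per 1e6 counts of its sample. AJUBA, the targeted gene, had an RPM of 88.8 and 91.6 in Parental, 83.4 and 81.6 in shScrambled and 89.6, 100.5 and 89.4 in Control. It was 549.7, 462 and 566 in Ajuba OE, 49.6, 47.3 and 53.5 in shAjuba1 and 60.3, 68.6 and 57.1 in shAjuba2, so no modified line overlapped with its control. By the quasi-likelihood test of edgeR, adjusted by Benjamini-Hochberg and used throughout with the standard error (SE) after ±, AJUBA fell in shAjuba1 (log2 fold change -0.73 ± 0.08, adjusted p = 2.19e-05) and rose in Ajuba OE (log2 fold change 2.56 ± 0.11, adjusted p = 7.69e-05), while the value in shAjuba2 did not pass the threshold of 0.05 (log2 fold change -0.46 ± 0.13, adjusted p = 0.0773). Of the markers of the labelled cell type, KRT8, KRT18, EPCAM, CDH1, CDX2 and VIL1 were present in every sample, whereas KRT20, CDX1 and LGALS4 stayed below 1 RPM. DCN, CDH5 and PTPRC, which define fibroblasts, endothelium and leukocytes, had at most 3 counts in any sample. The 6 fibroblast markers summed to 6.21 to 10.4 RPM in Ajuba OE and 15.6 to 24.6 RPM in Control, mostly from COL1A1, and the part of this difference in the results below was not tested. On the first principal component of all genes, which held 34.0% of the variance, replicate 2 of shAjuba2, Control and Ajuba OE lay apart from the other samples of its line. Among the 32 genes tested, replicate 2 was the lowest shAjuba2 sample for 18 and the highest for 7. Ajuba OE replicate 2 was the lowest of its line for 15 and the highest for 5. By contrast, Control replicate 2 was more often the highest of its line, for 16 genes, than the lowest, for 6. Replicate 2 of shAjuba1, which did not lie apart, was the lowest for 17 and the highest for 7. These counts are not given over all genes. RNA from whole cultures cannot tell fewer expressing cells from less RNA per cell.

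Levels were compared between genes as RPM per kb of merged exon length. WNT5A was the highest gene of the 43, with a mean of 39.8 RPM per kb over the 16 samples, followed by WNT6 with 19.1 and LRP5 with 13.5. The highest receptor of the Frizzled family was FZD6 with 9.05, and the highest inhibitor was DKK1 with 9.58. These values show a family in which a few genes hold most of the transcripts. In contrast, 11 genes were too low for testing in any comparison (WNT1, WNT2, WNT8A, WNT9B, RSPO1, RSPO2, RSPO3, RSPO4, DKK2, SFRP1 and SFRP2), and none of them had more than 10 counts in a sample. A count of 0 allows up to 3 counts, which is 0.0431 to 0.0996 RPM at these depths, an estimate that covers counting error only. The other 32 genes were tested, except SFRP4 between the knockdown lines.

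Promoter sequences were looked up for 29 of the 43 genes in RefSeq (GRCh38.p14). The TCF/LEF core CTTTGA was searched on both strands from 250 bases before to 50 bases after each start, as was the TEAD core GGAATG, the site of the factors that work with YAP and TAZ. The TCF/LEF core was present in 12.9% of all 35116 promoters and the TEAD core in 14.0%. Among the 29 genes, the TCF/LEF core was found for DKK1 alone, 149 and 95 bases before the start, and the TEAD core for DKK1, 50 bases before the start, and for WNT16. The 250 bases before the start are printed for the inhibitors DKK1 and SFRP5 and for the ligand WNT5A, as the gene that holds the motifs, the gene called in all comparisons with a control and the highest ligand. The DKK1 sequence is chr10:52314031-52314280 on the plus strand, SFRP5 is chr10:97772000-97772249 on the minus strand, and WNT5A is chr3:55481399-55481648 on the minus strand. All 3 lie outside the exons of their own gene, and the WNT5A stretch lies inside the gene, before an internal RefSeq start. Capitals mark the motifs, as TCAAAG where the TCF/LEF core is on the other strand, and no capitals mean that neither core is in the window.
DKK1: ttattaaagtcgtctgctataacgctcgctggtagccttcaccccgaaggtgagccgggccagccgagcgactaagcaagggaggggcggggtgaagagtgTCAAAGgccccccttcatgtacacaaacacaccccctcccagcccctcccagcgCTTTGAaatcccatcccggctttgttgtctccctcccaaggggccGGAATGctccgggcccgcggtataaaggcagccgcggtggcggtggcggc
SFRP5: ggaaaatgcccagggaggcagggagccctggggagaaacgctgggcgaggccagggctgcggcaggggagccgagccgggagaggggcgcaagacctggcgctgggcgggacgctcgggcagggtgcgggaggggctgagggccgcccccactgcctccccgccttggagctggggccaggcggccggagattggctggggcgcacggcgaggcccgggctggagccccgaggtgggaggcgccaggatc
WNT5A: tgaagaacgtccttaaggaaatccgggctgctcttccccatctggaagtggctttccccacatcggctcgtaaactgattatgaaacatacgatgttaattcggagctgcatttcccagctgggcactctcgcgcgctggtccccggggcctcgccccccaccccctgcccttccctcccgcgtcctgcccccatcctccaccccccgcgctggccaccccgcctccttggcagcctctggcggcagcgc

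In shAjuba1 against shScrambled, 15 of 32 genes were called at an adjusted p-value under 0.05 (46.9%), 4 higher and 11 lower, where 38.4% of all genes tested were called, 18.2% higher and 20.2% lower. For shAjuba2 beside the same control, 5 of 32 were called (15.6%), all lower, where 7.63% of all genes were, 3.19% higher and 4.44% lower. For Ajuba OE beside Control, 11 of 32 were called (34.4%), 5 higher and 6 lower, beside 5.43% of all genes, 2.39% higher and 3.03% lower. The share of the 32 genes called was thus near the background in shAjuba1 and above it in Ajuba OE. In shAjuba2 it was also above the background, but on 5 calls, and near it with the replicate number as a block. None of these differences was tested. The median log2 fold change of the 32 genes was -0.21, 0.02 and -0.02 in these comparisons, and -0.01 over all genes in each of them. Both knockdown comparisons share the shScrambled samples, so their values are given side by side. The samples of 8 genes lay above and of 14 below those of shScrambled in shAjuba1 without overlap, of 9 and 8 in shAjuba2, and of 6 and 10 in Ajuba OE against Control. No such count was made over all genes, so these numbers have no background beside them. Of the 5 calls in shAjuba2, 4 were lost without shAjuba2 replicate 1 and 2 without its replicate 3. Leaving out a shScrambled or Parental sample left a single sample in that line. A call lost that way, also below, cannot show that it rested on that library. Without shAjuba2 replicate 2 all 5 were kept, and 11 genes were called. In shAjuba1, 8 calls were made without shScrambled replicate 1. In Ajuba OE, 6 were made without Control replicate 1 or 2, 3 without Control replicate 3, 7 without Ajuba OE replicate 1 and 5 without Ajuba OE replicate 3. Calls over all genes in the fits with a replicate left out are not given here.

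**Figure D1:**
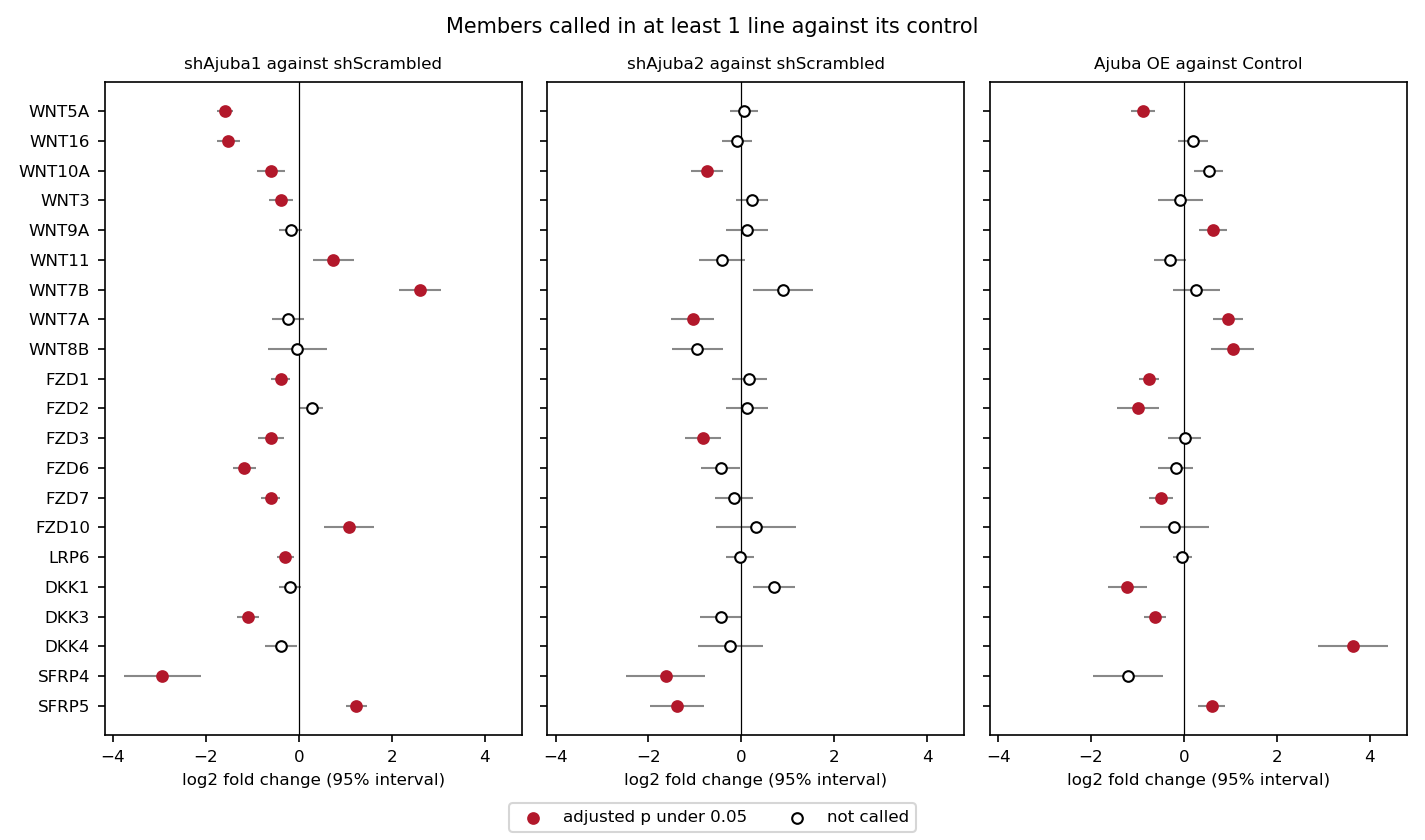
Log2 fold changes with 95% intervals of the 21 genes called in at least 1 line against its control, with shAjuba1 and shAjuba2 against shScrambled and Ajuba OE against Control, filled where the adjusted p-value was under 0.05. WNT5A lay at -1.58, 0.06 and -0.88 and SFRP5 at 1.24, -1.39 and 0.60, in the order of the panels.

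Ligands were led by WNT5A, which acts mostly without β-catenin. RPM of WNT5A was 337 and 338 in Parental, 419.7 and 400.2 in shScrambled and 138, 143 and 134 in shAjuba1. In shAjuba2 WNT5A measured 445, 454 and 422, in Control 329, 273 and 271 and in Ajuba OE 162, 138 and 154. shAjuba1 and Ajuba OE lay far below every other line, and neither overlapped with its control. WNT5A fell 3.00-fold in shAjuba1 (log2 fold change -1.58 ± 0.08, adjusted p = 2.80e-08) and 1.84-fold in Ajuba OE (log2 fold change -0.88 ± 0.11, adjusted p = 0.00493). Hence it was lower both in a line with less and in the line with more AJUBA. In shAjuba2, whose samples lay above shScrambled, the test did not pass (log2 fold change 0.06 ± 0.13, adjusted p = 0.815). Both falls were called under every alternative tried.

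WNT5A held a large part of all ligand transcripts, so a sum over the ligands moves with it. Summed RPM per kb of the 19 ligands was 82.9 ± 3.62 for Parental and 90.4 ± 0.164 for shScrambled (SD, n = 2 each). The sum was 49.1 ± 6.79 for shAjuba1, 92.1 ± 0.488 for shAjuba2, 80.7 ± 3.89 for Control and 63.0 ± 4.16 for Ajuba OE (SD, n = 3 each). The WNT5A share of this sum was 63.4% ± 2.25 for shScrambled (SD, n = 2), 39.9% ± 6.20 for shAjuba1, 66.9% ± 2.41 for shAjuba2, 50.4% ± 6.19 for Control and 33.7% ± 4.20 for Ajuba OE (SD, n = 3 each). Every sample of shAjuba1 and Ajuba OE had a smaller ligand sum, and a smaller WNT5A share, than every sample of its control. The 18 ligands other than WNT5A summed to 33.1 ± 2.09 RPM per kb for shScrambled (SD, n = 2), 29.8 ± 7.30 for shAjuba1, 30.5 ± 2.16 for shAjuba2, 40.1 ± 6.15 for Control and 41.9 ± 5.22 for Ajuba OE (SD, n = 3 each). Without WNT5A, the samples of shAjuba1 and of Ajuba OE thus overlapped with those of their controls.

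**Figure D2:**
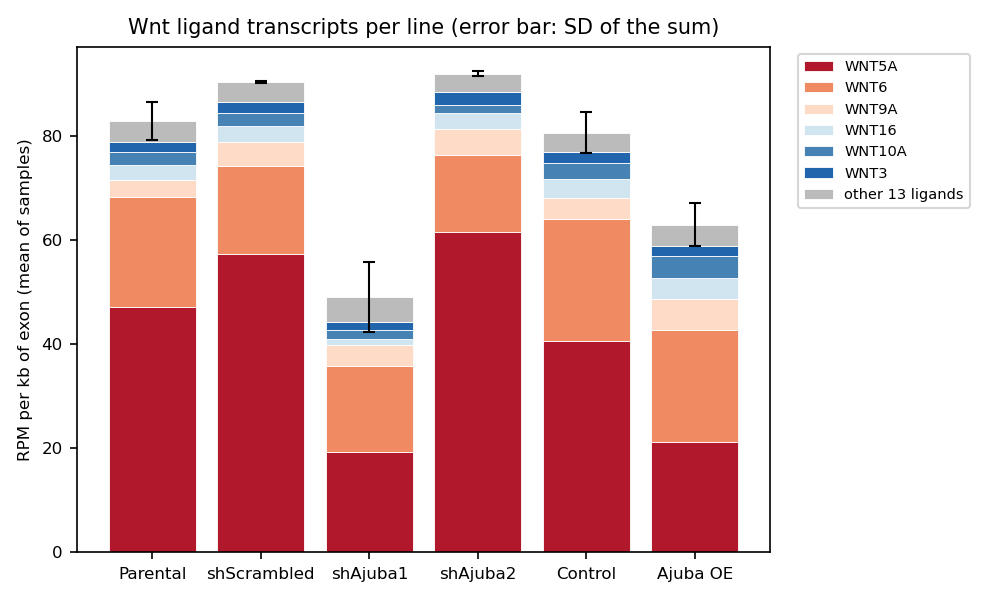
Mean RPM per kb of the 19 Wnt ligands per line, stacked by gene, with the SD of the sum as error bar (n = 2 for Parental and shScrambled, n = 3 for the others). The total falls from 90.4 in shScrambled to 49.1 in shAjuba1 and from 80.7 in Control to 63.0 in Ajuba OE, while the part without WNT5A is 33.1, 29.8, 40.1 and 41.9 in these lines.

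WNT6, an epithelial ligand, came next in level. RPM of WNT6 was 32.3 and 40.9 in Parental, 27.1 and 31.6 in shScrambled and 25.0, 21.3 and 39.4 in shAjuba1. In shAjuba2 WNT6 measured 25.8, 20.8 and 29.8, in Control 33.0, 48.6 and 39.2 and in Ajuba OE 36.6, 46.6 and 27.8. The samples of every modified line overlapped with those of its control, and no comparison passed the test, with adjusted p = 0.833, 0.369 and 0.922 in shAjuba1, shAjuba2 and Ajuba OE.

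WNT16, known for its role in bone, was low in shAjuba1. RPM of WNT16 was 9.00 and 9.70 in Parental, 10.2 and 10.1 in shScrambled and 3.54, 3.42 and 3.81 in shAjuba1. In shAjuba2 WNT16 measured 11.0, 8.85 and 9.67, in Control 10.0, 12.7 and 12.4 and in Ajuba OE 15.1, 11.4 and 12.1. The 3 shAjuba1 samples lay below all other samples. WNT16 fell 2.86-fold there (log2 fold change -1.52 ± 0.12, adjusted p = 8.84e-07) under every alternative tried, while shAjuba2 (log2 fold change -0.10 ± 0.14, adjusted p = 0.710) and Ajuba OE (log2 fold change 0.19 ± 0.14, adjusted p = 0.528) did not pass.

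WNT10A, which acts in tooth and hair development, was lower in both knockdown lines. RPM of WNT10A was 7.51 and 7.84 in Parental, 7.65 and 7.35 in shScrambled and 4.86, 4.15 and 5.96 in shAjuba1. In shAjuba2 WNT10A measured 4.54, 4.82 and 4.57, in Control 7.86, 10.2 and 9.52 and in Ajuba OE 11.8, 13.1 and 13.4. The samples of both knockdown lines lay below and those of Ajuba OE above their controls. WNT10A fell in shAjuba1 (log2 fold change -0.60 ± 0.14, adjusted p = 0.00527) and in shAjuba2 (log2 fold change -0.74 ± 0.15, adjusted p = 0.0255), and the value in Ajuba OE did not pass (log2 fold change 0.53 ± 0.13, adjusted p = 0.0690). For WNT10A in shAjuba1 the call was lost without shScrambled replicate 1 (adjusted p = 0.0643). In shAjuba2 the WNT10A call was lost without shScrambled replicate 1 (adjusted p = 0.268), without shScrambled replicate 2 (adjusted p = 0.223), without shAjuba2 replicate 1 (adjusted p = 0.109) and without shAjuba2 replicate 3 (adjusted p = 0.0560).

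WNT3, a ligand that Paneth cells supply to intestinal stem cells, differed less. RPM of WNT3 was 10.0 and 9.31 in Parental, 11.5 and 10.9 in shScrambled and 8.71, 7.73 and 9.58 in shAjuba1. In shAjuba2 WNT3 measured 13.8, 14.8 and 12.0, in Control 9.64, 13.7 and 9.59 and in Ajuba OE 8.87, 12.3 and 8.65. Only the shAjuba1 samples among the modified lines lay below their control without overlap. WNT3 fell in shAjuba1 (log2 fold change -0.38 ± 0.12, adjusted p = 0.0193), and neither shAjuba2 (adjusted p = 0.387) nor Ajuba OE (adjusted p = 0.888) passed. That WNT3 call was lost with all 16 samples in one fit (adjusted p = 0.175), with Parental as the control (adjusted p = 0.242), without shScrambled replicate 1 (adjusted p = 0.168), without shScrambled replicate 2 (adjusted p = 0.0726), without shAjuba1 replicate 1 (adjusted p = 0.0561) and without shAjuba1 replicate 2 (adjusted p = 0.0698).

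WNT7B, a ligand of the β-catenin branch in epithelia, rose most among the ligands in shAjuba1. RPM of WNT7B was 1.07 and 1.06 in Parental, 0.631 and 0.477 in shScrambled and 3.14, 3.65 and 3.34 in shAjuba1. In shAjuba2 WNT7B measured 1.18, 0.833 and 1.15, in Control 0.612, 0.775 and 0.638 and in Ajuba OE 0.861, 0.646 and 0.830. The shAjuba1 samples lay above all others, those of shAjuba2 also lay above shScrambled, and Ajuba OE overlapped with Control. WNT7B rose 6.08-fold in shAjuba1 (log2 fold change 2.61 ± 0.21, adjusted p = 1.18e-06), and did not pass in shAjuba2 (log2 fold change 0.90 ± 0.28, adjusted p = 0.0929) or Ajuba OE (log2 fold change 0.26 ± 0.22, adjusted p = 0.596). Its call in shAjuba1 was kept under every alternative, at a log2 fold change of 1.62 with Parental as the control, where WNT7B was higher than in shScrambled.

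WNT11, a ligand that acts mostly without β-catenin in cell movement, was also higher in shAjuba1. RPM of WNT11 was 2.47 and 2.61 in Parental, 1.70 and 1.57 in shScrambled and 2.66, 2.16 and 3.45 in shAjuba1. In shAjuba2 WNT11 measured 1.46, 1.06 and 1.26, in Control 2.68, 3.04 and 2.78 and in Ajuba OE 2.34, 2.33 and 1.94. WNT11 rose against shScrambled (log2 fold change 0.75 ± 0.20, adjusted p = 0.0108), and the shAjuba1 samples overlapped with those of Parental and Control. For WNT11 in shAjuba1 the call was lost with Parental as the control (adjusted p = 0.734), without shScrambled replicate 1 (adjusted p = 0.0527) and without shScrambled replicate 2 (adjusted p = 0.104), and with Parental the log2 fold change was 0.09. Neither shAjuba2 (adjusted p = 0.256) nor Ajuba OE (adjusted p = 0.349) passed. WNT11 shares 204 exon bases with an antisense gene, and the strand setting of the counting was not given in the sources used here.

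WNT7A, a close relative of WNT7B, differed in shAjuba2 and Ajuba OE. RPM of WNT7A was 2.69 and 2.13 in Parental, 3.10 and 2.80 in shScrambled and 2.30, 2.36 and 2.95 in shAjuba1. In shAjuba2 WNT7A measured 1.42, 1.26 and 1.73, in Control 1.98, 1.92 and 1.87 and in Ajuba OE 3.50, 3.29 and 3.87. shAjuba2 lay below shScrambled and Ajuba OE above Control, both without overlap, while shAjuba1 overlapped with shScrambled. WNT7A fell 2.07-fold in shAjuba2 (log2 fold change -1.05 ± 0.20, adjusted p = 0.0232) and rose 1.93-fold in Ajuba OE (log2 fold change 0.95 ± 0.14, adjusted p = 0.00882), and did not pass in shAjuba1 (adjusted p = 0.289). In shAjuba2 the WNT7A call was lost with Parental as the control (adjusted p = 0.0709), without shScrambled replicate 1 (adjusted p = 0.219), without shScrambled replicate 2 (adjusted p = 0.169) and without shAjuba2 replicate 1 (adjusted p = 0.0994). In Ajuba OE it was lost with Parental as the control (adjusted p = 0.105) and without Control replicate 3 (adjusted p = 0.0685).

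WNT8B, best known from the developing forebrain, rose in Ajuba OE from a low level. RPM of WNT8B was 0.573 and 0.989 in Parental, 1.01 and 0.994 in shScrambled and 0.691, 0.830 and 1.49 in shAjuba1. In shAjuba2 WNT8B measured 0.580, 0.518 and 0.514, in Control 0.641, 0.714 and 0.546 and in Ajuba OE 1.26, 1.17 and 1.36. The Ajuba OE samples lay above Control, and the highest single value was shAjuba1 replicate 3. WNT8B rose 2.07-fold in Ajuba OE (log2 fold change 1.05 ± 0.20, adjusted p = 0.0246), with adjusted p = 0.938 in shAjuba1 and 0.0507 in shAjuba2. This call for WNT8B was lost with Parental as the control (adjusted p = 0.213), without Control replicate 1 (adjusted p = 0.0838), without Control replicate 2 (adjusted p = 0.0556), without Control replicate 3 (adjusted p = 0.135), without Ajuba OE replicate 1 (adjusted p = 0.0675) and without Ajuba OE replicate 3 (adjusted p = 0.0992).

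WNT9A, a ligand of joint formation, also rose in Ajuba OE. RPM of WNT9A was 13.7 and 11.5 in Parental, 17.4 and 18.8 in shScrambled and 14.9, 15.0 and 18.6 in shAjuba1. In shAjuba2 WNT9A measured 15.9, 24.2 and 21.0, in Control 16.3, 16.8 and 16.1 and in Ajuba OE 20.9, 23.7 and 28.1. Ajuba OE lay above Control without overlap, and replicates 2 and 3 of shAjuba2 fell within the range of Ajuba OE. WNT9A rose 1.54-fold (log2 fold change 0.63 ± 0.13, adjusted p = 0.0385), and did not pass in shAjuba1 (adjusted p = 0.239) or shAjuba2 (adjusted p = 0.725). For WNT9A in Ajuba OE the call was lost without Control replicate 1 (adjusted p = 0.118), without Control replicate 2 (adjusted p = 0.0736), without Control replicate 3 (adjusted p = 0.175), without Ajuba OE replicate 2 (adjusted p = 0.0613) and without Ajuba OE replicate 3 (adjusted p = 0.123). The other 5 ligands tested, WNT2B, WNT3A, WNT4, WNT5B and WNT10B, passed in none of the 3 comparisons with a control.

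**Figure D3:**
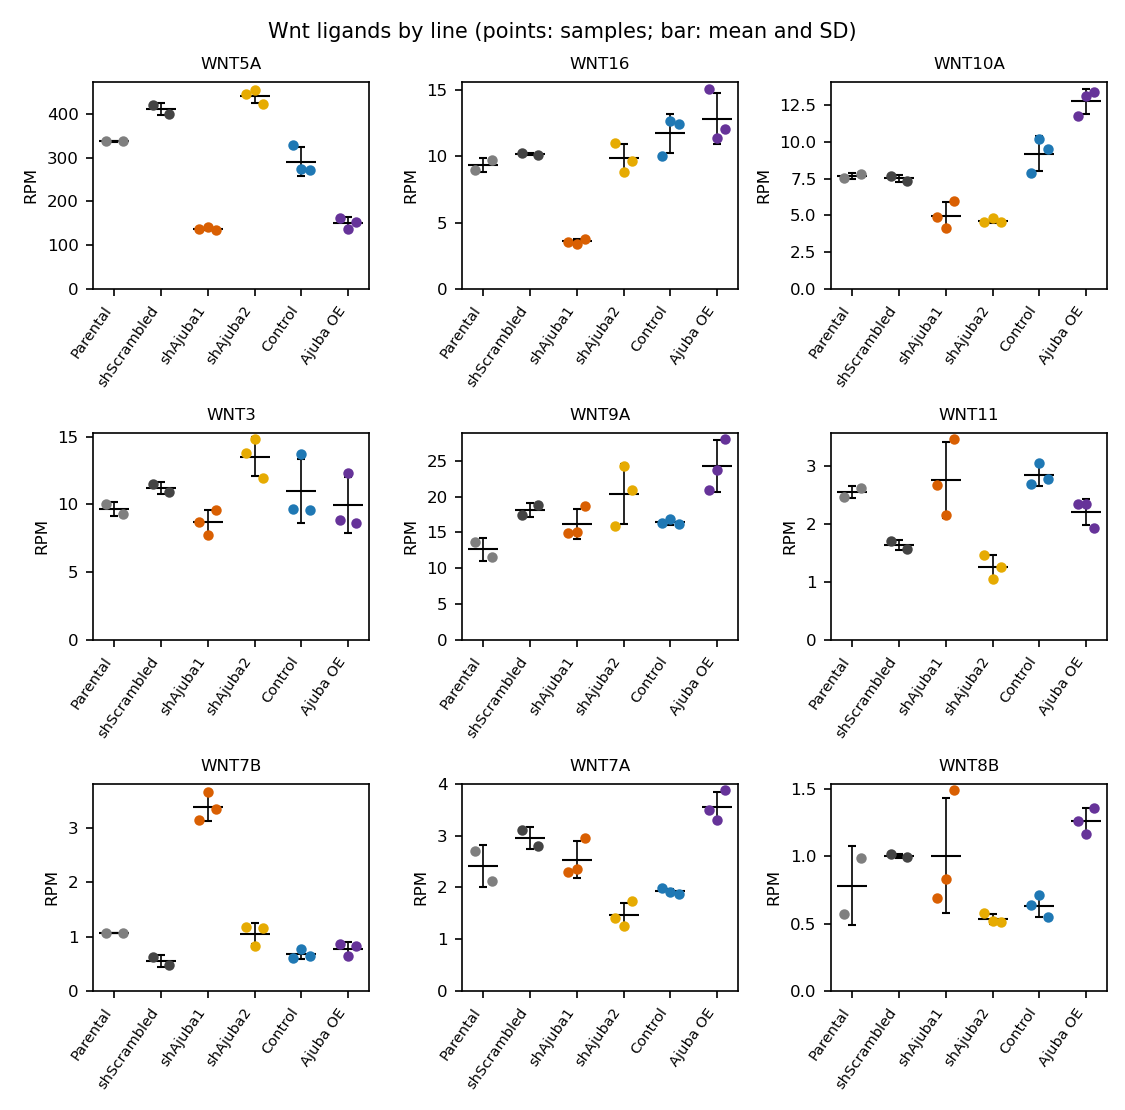
RPM of the 9 Wnt ligands called in at least 1 comparison with a control, by line, with a point per sample and the mean with SD as bars, each panel with its own axis from 0. shAjuba1 and Ajuba OE stand low for WNT5A, at 134 to 162 RPM, and shAjuba1 stands high for WNT7B, at 3.14 to 3.65 RPM.

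Among the Frizzled receptors, 5 of 10 were called in shAjuba1 (1 higher), 1 in shAjuba2 (lower) and 3 in Ajuba OE (all lower), beside 38.4%, 7.63% and 5.43% of all genes. Their summed RPM per kb was 32.2 ± 1.42 for shScrambled (SD, n = 2), 22.7 ± 0.779 for shAjuba1, 29.3 ± 5.19 for shAjuba2, 27.7 ± 2.29 for Control and 21.4 ± 2.48 for Ajuba OE (SD, n = 3 each).

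FZD6, a receptor of planar cell polarity and the highest of the family, was low in shAjuba1. RPM of FZD6 was 38.9 and 42.4 in Parental, 52.6 and 48.9 in shScrambled and 24.0, 24.8 and 19.3 in shAjuba1. In shAjuba2 FZD6 measured 45.8, 28.9 and 41.0, in Control 47.7, 33.4 and 39.1 and in Ajuba OE 39.4, 27.8 and 34.4. The shAjuba1 samples lay below all others, and replicate 2 was the lowest sample of shAjuba2, Control and Ajuba OE. FZD6 fell 2.26-fold in shAjuba1 (log2 fold change -1.17 ± 0.11, adjusted p = 5.52e-06) under every alternative tried, and did not pass in shAjuba2 (log2 fold change -0.45 ± 0.18, adjusted p = 0.169) or Ajuba OE (log2 fold change -0.18 ± 0.16, adjusted p = 0.634). It shares 138 exon bases with the antisense gene BAALC-AS1, whose log2 fold change in shAjuba1 was -1.18.

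FZD7, a Wnt receptor of intestinal stem cells, was lower in shAjuba1 and Ajuba OE. RPM of FZD7 was 35.3 and 40.5 in Parental, 31.7 and 28.2 in shScrambled and 20.3, 18.9 and 20.4 in shAjuba1. In shAjuba2 FZD7 measured 33.8, 22.0 and 28.0, in Control 33.8, 31.2 and 32.4 and in Ajuba OE 25.5, 20.2 and 20.4. Both lines lay below their controls without overlap, and shAjuba2 overlapped with shScrambled. FZD7 fell 1.52-fold in shAjuba1 (log2 fold change -0.61 ± 0.10, adjusted p = 3.28e-04) under every alternative, and 1.41-fold in Ajuba OE (log2 fold change -0.50 ± 0.11, adjusted p = 0.0430), with adjusted p = 0.627 in shAjuba2. For FZD7 in Ajuba OE the call was lost with every gene of at least 1 count kept (adjusted p = 0.0766), without Control replicate 1 (adjusted p = 0.133), without Control replicate 2 (adjusted p = 0.0830), without Control replicate 3 (adjusted p = 0.183), without Ajuba OE replicate 1 (adjusted p = 0.0551), without Ajuba OE replicate 2 (adjusted p = 0.102) and without Ajuba OE replicate 3 (adjusted p = 0.205).

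FZD1, a close relative of FZD7, was lower in the same lines. RPM of FZD1 was 19.6 and 24.7 in Parental, 26.4 and 24.6 in shScrambled and 19.8, 18.8 and 20.4 in shAjuba1. In shAjuba2 FZD1 measured 32.9, 23.3 and 33.1, in Control 20.5, 19.9 and 19.6 and in Ajuba OE 11.6, 11.6 and 11.0. Ajuba OE lay below all other samples. FZD1 fell 1.68-fold in Ajuba OE (log2 fold change -0.75 ± 0.09, adjusted p = 0.00407) under every alternative tried, and fell 1.31-fold in shAjuba1 (log2 fold change -0.39 ± 0.09, adjusted p = 0.00584), with adjusted p = 0.545 in shAjuba2. For FZD1 in shAjuba1 the call was lost with all 16 samples in one fit (adjusted p = 0.0518), with Parental as the control (adjusted p = 0.169) and without shScrambled replicate 1 (adjusted p = 0.107).

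FZD2, the other close relative of FZD7, was low in Ajuba OE. RPM of FZD2 was 8.85 and 10.5 in Parental, 9.49 and 9.44 in shScrambled and 12.1, 10.5 and 12.0 in shAjuba1. In shAjuba2 FZD2 measured 12.3, 7.95 and 11.9, in Control 6.84, 8.51 and 7.88 and in Ajuba OE 4.65, 3.77 and 2.74. Ajuba OE lay below all other samples, and shAjuba1 lay above shScrambled. FZD2 fell 1.98-fold in Ajuba OE (log2 fold change -0.99 ± 0.19, adjusted p = 0.0276), and did not pass in shAjuba1 (log2 fold change 0.28, adjusted p = 0.0653) or shAjuba2 (adjusted p = 0.714). For FZD2 in Ajuba OE the call was lost without Control replicate 1 (adjusted p = 0.0605), without Control replicate 2 (adjusted p = 0.0735), without Control replicate 3 (adjusted p = 0.125), without Ajuba OE replicate 2 (adjusted p = 0.0533) and without Ajuba OE replicate 3 (adjusted p = 0.0718).

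FZD3, a receptor of axon guidance and cell polarity, was lower in both knockdown lines than in shScrambled. RPM of FZD3 was 22.8 and 26.1 in Parental, 37.4 and 31.2 in shScrambled and 24.8, 24.4 and 19.0 in shAjuba1. In shAjuba2 FZD3 measured 22.6, 15.9 and 21.3, in Control 30.8, 21.9 and 25.5 and in Ajuba OE 26.5, 21.6 and 27.8. The shScrambled samples lay above all others, and Parental overlapped with shAjuba1. FZD3 fell in shAjuba1 (log2 fold change -0.61 ± 0.13, adjusted p = 0.00250) and shAjuba2 (log2 fold change -0.83 ± 0.17, adjusted p = 0.0265), with adjusted p = 0.959 in Ajuba OE. For FZD3 in shAjuba1 the call was lost with Parental as the control (adjusted p = 0.433) and without shScrambled replicate 1 (adjusted p = 0.0809). In shAjuba2 the FZD3 call was lost with Parental as the control (adjusted p = 0.184), without shScrambled replicate 1 (adjusted p = 0.274), without shScrambled replicate 2 (adjusted p = 0.141) and without shAjuba2 replicate 1 (adjusted p = 0.0758).

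FZD10 was the Frizzled receptor that rose in shAjuba1, from a low level. RPM of FZD10 was 0.648 and 0.877 in Parental, 0.603 and 1.05 in shScrambled and 1.59, 1.69 and 2.24 in shAjuba1. In shAjuba2 FZD10 measured 1.27, 0.653 and 1.34, in Control 0.495, 0.347 and 0.296 and in Ajuba OE 0.258, 0.313 and 0.377. The shAjuba1 samples lay above all others, and Ajuba OE overlapped with Control. FZD10 rose 2.12-fold (log2 fold change 1.08 ± 0.25, adjusted p = 0.00454), with adjusted p = 0.633 in shAjuba2 and 0.795 in Ajuba OE. For FZD10 in shAjuba1 the call was lost without shScrambled replicate 1 (adjusted p = 0.0581). FZD4, FZD5, FZD8 and FZD9 passed in none of the 3 comparisons with a control. FZD4 shares 1399 exon bases with PRSS23 on the other strand, which rose in shAjuba1 (log2 fold change 1.12) and fell in Ajuba OE (log2 fold change -1.10).

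The co-receptors LRP5 and LRP6, through which the ligands reach β-catenin, had ratios of the highest to the lowest line mean of RPM of 1.45 and 1.23. That of LRP6 was the smallest among the 32 genes tested, and FZD9, FZD5, WNT10B and FZD8 lay between both. In the single test over all 6 lines LRP5 was called (adjusted p = 0.0296) and LRP6 was not (adjusted p = 0.123). RPM of LRP5 was 77.0 and 84.5 in Parental, 82.5 and 87.1 in shScrambled and 78.2, 71.5 and 87.6 in shAjuba1. In shAjuba2 LRP5 measured 106, 101 and 95.1, in Control 58.9, 79.4 and 70.2 and in Ajuba OE 84.0, 93.7 and 77.8. No comparison of LRP5 with a control passed, with adjusted p = 0.345, 0.318 and 0.207 in shAjuba1, shAjuba2 and Ajuba OE. RPM of LRP6 was 69.6 and 72.2 in Parental, 85.9 and 80.0 in shScrambled and 67.2, 71.9 and 66.0 in shAjuba1. In shAjuba2 LRP6 measured 91.3, 86.5 and 75.5, in Control 80.5, 76.5 and 74.1 and in Ajuba OE 77.6, 71.1 and 67.3. LRP6 fell 1.23-fold in shAjuba1 (log2 fold change -0.29 ± 0.09, adjusted p = 0.0159), with adjusted p = 0.935 in shAjuba2 and 0.883 in Ajuba OE. This call for LRP6 was lost with all 16 samples in one fit (adjusted p = 0.0558), with Parental as the control (adjusted p = 0.458), without shScrambled replicate 1 (adjusted p = 0.206), without shScrambled replicate 2 (adjusted p = 0.0504) and without shAjuba1 replicate 1 (adjusted p = 0.0845).

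**Figure D4:**
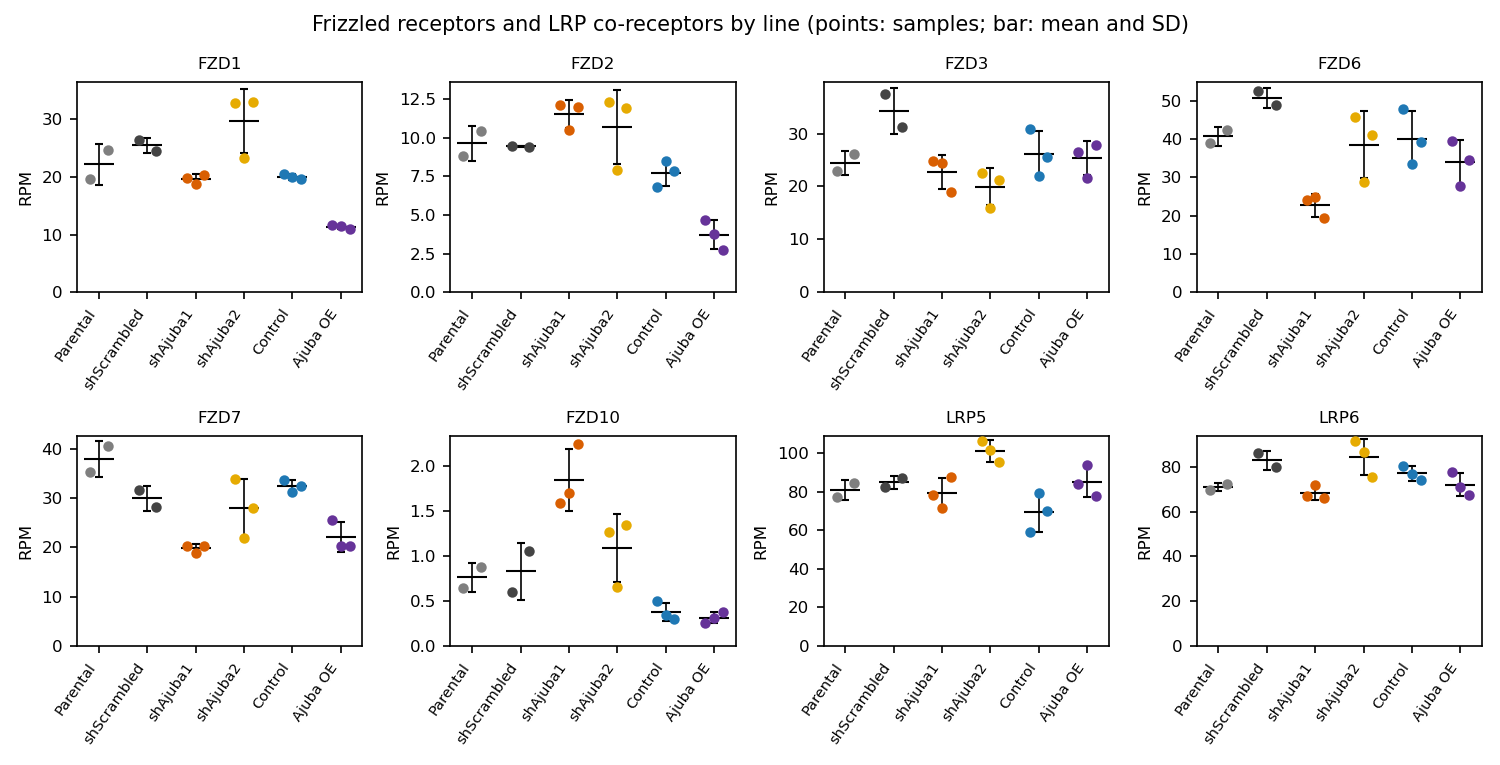
RPM of the 6 Frizzled receptors called in at least 1 comparison with a control, and of LRP5 and LRP6, by line, with a point per sample and the mean with SD as bars. FZD6 stands low in shAjuba1, at 19.3 to 24.8 RPM, and FZD1 in Ajuba OE, at 11.0 to 11.6 RPM.

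The 4 R-spondins, which enhance Wnt signalling through LGR receptors, were close to absent in all lines. RSPO1 was 0.209, 0.199 and 0.193 RPM in shAjuba1 and between 0 and 0.119 RPM in the other 13 samples, and it was too low for testing. Their summed RPM per kb did not exceed 0.133 in any sample.

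Of the 8 secreted inhibitors, 5 were high enough for testing, and 4 of them were called in Ajuba OE, beside 5.43% of all genes. In shAjuba1, 3 were called beside 38.4% of all genes, and in shAjuba2, 2 beside 7.63%. DKK1, which blocks LRP5 and LRP6, fell in Ajuba OE. RPM of DKK1 was 17.7 and 17.2 in Parental, 24.9 and 22.2 in shScrambled and 21.7, 22.0 and 18.6 in shAjuba1. In shAjuba2 DKK1 measured 33.9, 35.1 and 50.2, in Control 21.3, 14.5 and 18.9 and in Ajuba OE 8.42, 6.00 and 7.97. Ajuba OE lay below and shAjuba2 above all other samples. DKK1 fell 2.34-fold in Ajuba OE (log2 fold change -1.22 ± 0.18, adjusted p = 0.00882), and did not pass in shAjuba2 (log2 fold change 0.71 ± 0.19, adjusted p = 0.0674) or shAjuba1 (log2 fold change -0.20 ± 0.11, adjusted p = 0.178). For DKK1 in Ajuba OE the call was lost without Control replicate 3 (adjusted p = 0.0544). DKK1 shares 227 exon bases with the antisense gene PRKG1-AS1, whose log2 fold change in Ajuba OE was -0.78 (adjusted p = 0.287).

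DKK4, a second DKK that blocks LRP5 and LRP6 and that β-catenin itself can induce, rose in Ajuba OE. RPM of DKK4 was 3.72 and 5.41 in Parental, 2.88 and 3.22 in shScrambled and 2.39, 2.56 and 2.18 in shAjuba1. In shAjuba2 DKK4 measured 2.60, 1.69 and 3.72, in Control 1.34, 0.673 and 1.02 and in Ajuba OE 15.9, 7.81 and 12.0. Ajuba OE lay above and Control below all other samples. DKK4 rose 12.5-fold against Control (log2 fold change 3.64 ± 0.33, adjusted p = 0.00105) under every alternative tried, but with Parental as the control the log2 fold change was 1.43 (adjusted p = 0.0343). Neither shAjuba1 (log2 fold change -0.38 ± 0.16, adjusted p = 0.0690) nor shAjuba2 (log2 fold change -0.24 ± 0.30, adjusted p = 0.654) passed. Between Control and Ajuba OE the DKK4 share of the inhibitors' summed RPM per kb went from 6.01% ± 1.51 to 47.4% ± 5.77 and the DKK1 share from 43.9% ± 4.46 to 12.3% ± 0.933 (SD, n = 3 each).

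DKK3, a divergent DKK that does not act as a typical LRP blocker, was lower in shAjuba1 and Ajuba OE. RPM of DKK3 was 41.7 and 45.6 in Parental, 36.2 and 43.0 in shScrambled and 17.8, 17.6 and 20.9 in shAjuba1. In shAjuba2 DKK3 measured 38.5, 23.7 and 29.1, in Control 30.4, 35.0 and 35.5 and in Ajuba OE 22.0, 21.0 and 19.5. Both lines lay below their controls without overlap. DKK3 fell 2.13-fold in shAjuba1 (log2 fold change -1.09 ± 0.11, adjusted p = 6.04e-06) under every alternative and 1.55-fold in Ajuba OE (log2 fold change -0.63 ± 0.10, adjusted p = 0.0131), with adjusted p = 0.209 in shAjuba2. For DKK3 in Ajuba OE the call was lost without Control replicate 3 (adjusted p = 0.0933), without Ajuba OE replicate 1 (adjusted p = 0.0605) and without Ajuba OE replicate 3 (adjusted p = 0.0839). DKK3 shares 5681 exon bases with USP47 on the other strand, with log2 fold changes of -0.27 in shAjuba1 and -0.09 in Ajuba OE.

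SFRP5, a decoy that binds Wnt ligands, was the one gene called in all 3 comparisons, in opposite directions in the knockdown lines. RPM of SFRP5 was 13.4 and 16.1 in Parental, 9.46 and 9.46 in shScrambled and 22.0, 21.2 and 24.4 in shAjuba1. In shAjuba2 SFRP5 measured 4.41, 2.37 and 4.47, in Control 11.1, 11.3 and 13.0 and in Ajuba OE 19.3, 14.9 and 17.1. shAjuba1 lay above all other samples and shAjuba2 below all of them. SFRP5 rose 2.36-fold in shAjuba1 (log2 fold change 1.24 ± 0.11, adjusted p = 1.89e-06), fell 2.61-fold in shAjuba2 (log2 fold change -1.39 ± 0.25, adjusted p = 0.0193) and rose 1.51-fold in Ajuba OE (log2 fold change 0.60 ± 0.12, adjusted p = 0.0336). In Ajuba OE the SFRP5 call was lost with library size alone as the scaling (adjusted p = 0.0645), with Parental as the control (adjusted p = 0.384), without Control replicate 1 (adjusted p = 0.115), without Control replicate 2 (adjusted p = 0.0922), without Control replicate 3 (adjusted p = 0.0897), without Ajuba OE replicate 1 (adjusted p = 0.124) and without Ajuba OE replicate 3 (adjusted p = 0.132). In shAjuba2 it was lost without shScrambled replicate 1 (adjusted p = 0.125), without shScrambled replicate 2 (adjusted p = 0.144) and without shAjuba2 replicate 1 (adjusted p = 0.0699). With Parental as the control SFRP5 had a log2 fold change of 0.58 in shAjuba1 and 0.26 in Ajuba OE, and of -2.04 in shAjuba2.

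SFRP4, a related decoy, was lower in both knockdown lines than in shScrambled but rested on few counts. RPM of SFRP4 was 0.249 and 0.579 in Parental, 0.960 and 0.934 in shScrambled and 0.167, 0.0332 and 0.138 in shAjuba1. In shAjuba2 SFRP4 measured 0.494, 0.203 and 0.247, in Control 0.408, 0.306 and 0.455 and in Ajuba OE 0.158, 0.125 and 0.201. The shScrambled samples lay above all others, and shAjuba2 overlapped with Parental and Control. SFRP4 fell in shAjuba1 (log2 fold change -2.94 ± 0.39, adjusted p = 7.30e-05) and in shAjuba2 (log2 fold change -1.63 ± 0.36, adjusted p = 0.0382), and did not pass in Ajuba OE (log2 fold change -1.21 ± 0.32, adjusted p = 0.0851). In shAjuba2 the SFRP4 call was lost with Parental as the control (adjusted p = 0.498), without shScrambled replicate 1 (adjusted p = 0.225), without shScrambled replicate 2 (adjusted p = 0.235) and without shAjuba2 replicate 3 (adjusted p = 0.0732). With Parental as the control SFRP4 had a log2 fold change of -1.83 for shAjuba1 and -0.50 for shAjuba2.

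**Figure D5:**
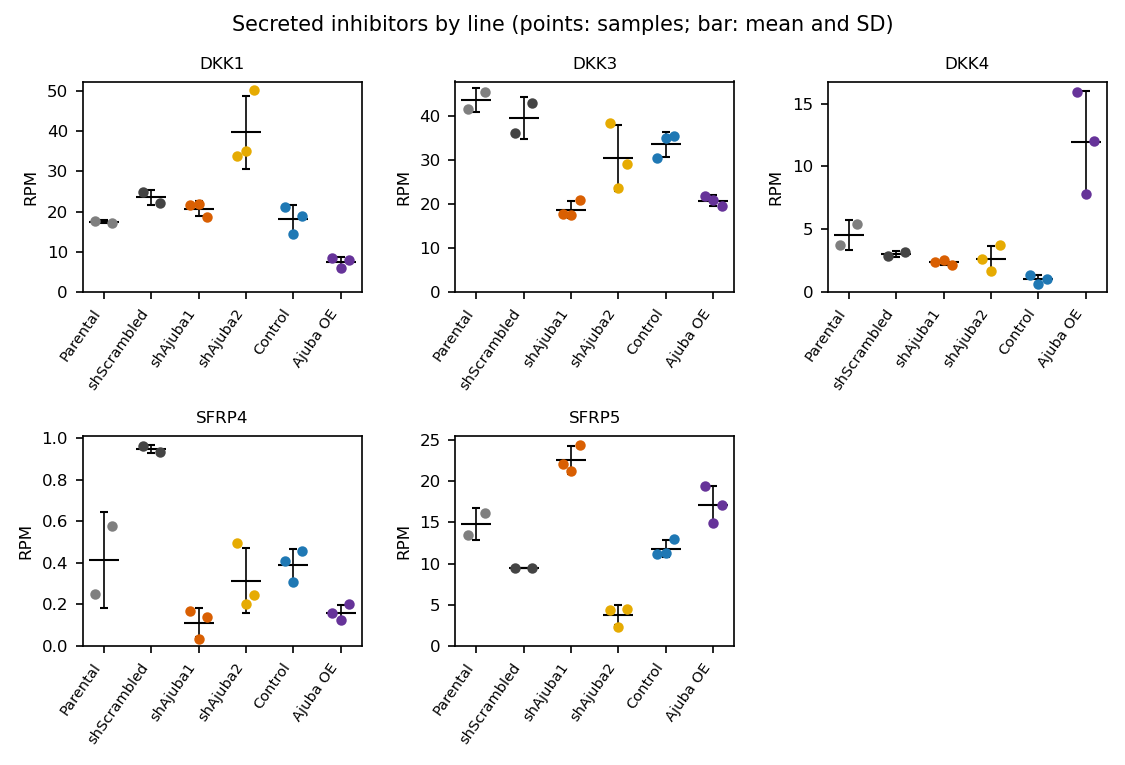
RPM of the 5 secreted inhibitors high enough for testing, by line, with a point per sample and the mean with SD as bars. Ajuba OE stands low for DKK1, at 6.00 to 8.42 RPM, and high for DKK4, at 7.81 to 15.9 RPM, and the knockdown lines lie on opposite sides of shScrambled for SFRP5.

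The knockdown lines were next compared with each other, without shScrambled. Of 31 genes tested, 12 were called (38.7%), 4 higher and 8 lower in shAjuba1, beside 19.6% of all genes, 9.47% higher and 10.1% lower. SFRP5 (log2 fold change 2.64 ± 0.21), WNT7B, WNT11 and WNT7A were higher in shAjuba1, and WNT5A (-1.62 ± 0.11), WNT16, WNT3, FZD1, FZD4, FZD6, DKK1 and DKK3 were higher in shAjuba2. Without overlap between samples, 7 of the 31 genes lay higher and 13 lower in shAjuba1, again with no such count over all genes. The count fell to 7 without shAjuba1 replicate 3 and to 6 without shAjuba2 replicate 1, with calls over all genes not given for these fits. AJUBA itself did not pass between these lines (log2 fold change -0.26 ± 0.12, adjusted p = 0.141).

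Across all 6 lines, 23 of 32 genes were called in a single test of any difference (71.9%), beside 45.7% of all genes. The 9 that were not called were FZD8, FZD9, LRP6, WNT2B, WNT3, WNT3A, WNT5B, WNT6 and WNT10B. Among the 3 control lines Parental, shScrambled and Control, 4 of 32 genes were called (12.5%), beside 10.9% of all genes. These were WNT11 (adjusted p = 0.0276), WNT9A (adjusted p = 0.0456), SFRP5 (adjusted p = 0.0425) and DKK4 (adjusted p = 0.00473). The count among control lines was 1 without Parental replicate 1, shScrambled replicate 1, shScrambled replicate 2 or Control replicate 3, 2 without Parental replicate 2, 7 without Control replicate 1 and 13 without Control replicate 2. With the replicate number as a block none of the 4 was called. For these alternative fits too, calls over all genes are not given here.

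Other genes of the pathway were read from 3 lists. Among 25 proteins of Wnt secretion and other surface regulators, 12 of 23 tested were called in shAjuba1 (6 higher, 6 lower), 6 of 23 in shAjuba2 (3 higher, 3 lower) and 4 of 21 in Ajuba OE (2 higher, 2 lower). These are 52.2%, 26.1% and 19.0% of the genes tested, beside 38.4%, 7.63% and 5.43% of all genes. Among the 3 control lines, where AJUBA was not targeted, 9 of 23 were also called (39.1%), beside 10.9% of all genes. The R-spondin receptor LGR5, a marker of intestinal stem cells, fell in shAjuba1 (log2 fold change -2.42 ± 0.27, adjusted p = 1.96e-05) and in shAjuba2 (log2 fold change -4.05 ± 0.37, adjusted p = 0.00157). The related receptor LGR6 rose in shAjuba1 (log2 fold change 2.14), while the inhibitor SOSTDC1 fell there (log2 fold change -2.53). FRZB, a soluble Wnt-binding protein, fell in shAjuba1 (log2 fold change -2.08) and Ajuba OE (log2 fold change -1.88) and rose in shAjuba2 (log2 fold change 1.57). The glypican GPC3 rose in shAjuba2 (log2 fold change 2.22), and the Wnt deacylase NOTUM fell there (log2 fold change -0.85). In Ajuba OE, TRABD2A (log2 fold change 0.90) and KREMEN1 (log2 fold change 0.85) rose and LGR4 (log2 fold change -0.74) fell.

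Of 32 cytoplasmic and nuclear transducers, all tested, 10 were called in shAjuba1 (5 higher, 5 lower), 2 in shAjuba2 (both lower) and 4 in Ajuba OE (1 higher, 3 lower). The shares in shAjuba1 and shAjuba2, 31.2% and 6.25%, were near the 38.4% and 7.63% of all genes. In Ajuba OE 12.5% were called beside 5.43% of all genes, with no test of that difference. Among the 3 control lines, 3 of 32 were called (9.38%), beside 10.9% of all genes. TLE1, a corepressor of TCF/LEF factors, fell in all 3 lines, with a log2 fold change of -2.28 in Ajuba OE, -2.03 in shAjuba1 and -0.83 in shAjuba2. Its relative TLE4 fell in shAjuba1 (log2 fold change -1.31) and shAjuba2 (log2 fold change -0.67). AMER1 (log2 fold change 0.61) and CSNK1D (log2 fold change 0.59) rose in shAjuba1. In Ajuba OE the β-catenin cofactor PYGO1 fell (log2 fold change -2.71), as did TLE2 (log2 fold change -1.50), and TLE3 rose (log2 fold change 0.61).

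Of 22 known Wnt targets, 15 of 22 tested were called in shAjuba1 (10 higher, 5 lower), 6 of 22 in shAjuba2 (4 higher, 2 lower) and 7 of 21 in Ajuba OE (5 higher, 2 lower). The shares were 68.2%, 27.3% and 33.3%, against 38.4%, 7.63% and 5.43% of all genes. In shAjuba1 the transcription factors SP5 (log2 fold change 1.01), MYC (log2 fold change 0.94) and TCF7 (log2 fold change 0.93) rose. In shAjuba2 BMP4 (log2 fold change 0.86) and TBX3 (log2 fold change 0.71) rose. In Ajuba OE ASCL2 (log2 fold change 1.35), PROX1 (log2 fold change 1.19) and TCF7 (log2 fold change 0.86) rose and BMP4 fell (log2 fold change -1.59). The target list held genes called in both directions in each line. It shares 5 genes with the list of surface proteins, namely LGR5, NOTUM, RNF43, ZNRF3 and APCDD1, so these counts are not separate. The median log2 fold change of the targets was 0.15, 0.06 and 0.22 in shAjuba1, shAjuba2 and Ajuba OE, that of the transducers 0.12, 0.11 and 0.02, and that of the surface proteins -0.10, -0.08 and 0.12.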

How the data were processed

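The authors prepared TruSeq Stranded mRNA libraries, sequenced read pairs, aligned them to hg38 with HISAT2 and counted pairs on exons with featureCounts. They deposited raw counts per gene without normalization. Versions, the strand setting and the annotation release are not given in the sources used here. All 16 samples of the single count table were used.

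Genes were named from GENCODE 44 for hg38, where 56434 of 66023 rows were found, holding 99.8% of counts. RPM is the count divided by the sample total and multiplied by 1e6. Each fit held only the samples of its comparison and used edgeR 4.0.16 in R 4.3.3 (filterByExpr by line, TMM, two-sided quasi-likelihood test, Benjamini-Hochberg over all genes tested, called under 0.05). The SE was taken as the size of the log2 fold change over the root of F. DESeq2 1.42.0 was an alternative, as were library size alone, no filter, all samples in one fit, Parental as the control, a replicate block and each replicate left out. The tests were checked on simulated counts. Figures used Python 3.11.15 with matplotlib 3.10.9. RPM per kb used merged exon length, and promoters came from RefSeq. Of 14 pairs of replicates, none agreed within counting noise (median chi-square over genes, divided by the median under counting noise, 1.87 to 14.3).

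The text gives values in every sample for genes called in at least 1 of 3 comparisons with a control, for LRP5 and LRP6 and for the 3 genes with the most RPM per kb. At most 4 called genes are named per list and comparison, by absolute log2 fold change. The members and lists were chosen with earlier results of these data known. The lists were not tested.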

Additional observations from a re-analysis of the deposited data

Results flagged for a closer look

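shAjuba1 and shAjuba2 target the same gene, and 12 of 31 genes differed between them by the quasi-likelihood test of edgeR after Benjamini-Hochberg adjustment. These were 38.7% of the genes tested, beside 19.6% of all genes, with no test of that difference. The largest change was that of SFRP5, higher in shAjuba1 at a log2 fold change of 2.64 ± 0.21 (adjusted p = 7.49e-05). WNT7B (1.72, adjusted p = 0.000315), WNT11 (1.18, adjusted p = 0.00465) and WNT7A (0.83, adjusted p = 0.0142) were also higher in shAjuba1. WNT5A (-1.62, adjusted p = 3.36e-05), WNT16 (-1.41, adjusted p = 0.000187), DKK1 (-0.89, adjusted p = 0.00520), FZD6 (-0.71, adjusted p = 0.0192) and DKK3 (-0.65, adjusted p = 0.0247) were lower in shAjuba1 on the same scale, as were WNT3 (-0.59, adjusted p = 0.0160), FZD1 (-0.55, adjusted p = 0.0247) and FZD4 (-0.40, adjusted p = 0.0444). Each of the 12 genes was higher in all 3 samples of 1 line than in all 3 of the other. As the genes were called on these same samples, this adds no support to the calls. Calls for SFRP5, WNT5A, WNT16, WNT7B, WNT11 and DKK1 were kept under every alternative tried. AJUBA did not pass between the lines (log2 fold change -0.26 ± 0.12, adjusted p = 0.141).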

How the results depend on the processing

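Of 43 calls of single genes in the 4 comparisons of lines, 17 were kept under every alternative, and none changed direction. Over 495 values under an alternative, 101 lost the call, of which 82 of 238 came from leaving out 1 replicate and 19 of 257 from other settings. For shAjuba2 against shScrambled, the count of genes called was 5, and 8 both with the replicate block and with all 16 samples in one fit. For the 3 control lines it was 4, and 11 with every gene of at least 1 count kept and 0 with the replicate block. With 1 replicate left out, the counts ran from 8 to 20 in shAjuba1, 0 to 11 in shAjuba2, 3 to 8 in Ajuba OE, 6 to 15 between the knockdown lines, 21 to 25 over all 6 lines and 1 to 13 among the control lines. With replicate 2 left out of Control and of Ajuba OE together the count was 12. The cause of these shifts was not tested, and leaving out a shScrambled or Parental sample leaves a single sample in that line. Calls over all genes in the fits with a replicate left out are not given here. A shift in the genes described here thus cannot be told from a shift over all genes.

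Deviations of same-numbered replicates from their line means correlated at -0.102 to 0.616, not above 0.1 in every pair, so the numbers were not taken to pair the samples. The highest value was that of replicate 2 of Control and Ajuba OE, which also lay apart from their lines, and whether these were handled together is not given in the sources used here. Of 6 samples, 2 correlated best with their own number between Control and Ajuba OE and 0 between the knockdown lines. With the replicate block, 17 genes were called in shAjuba1, 8 in shAjuba2, 15 in Ajuba OE, 10 between the knockdown lines, 23 over all 6 lines and 0 among the control lines. Over all genes, the block moved the calls from 1713 to 5377 in shAjuba2 and from 1147 to 5140 in Ajuba OE. The main fits had tested 22446 genes for shAjuba2 and 21140 for Ajuba OE. On these numbers, the 8 of 32 genes called in shAjuba2 with the block were near the share over all genes. In Ajuba OE the 15 of 32 were above that share, with no test of either difference. For the other comparisons, calls over all genes with the block are not given here. Lines have 2 or 3 samples, and low depth limits genes below about 1 RPM, such as SFRP4 and FZD10.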
